A study of Mus musculus with 6 samples.

Results

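A panel of 31 genes of monocytes, macrophages and dendritic cells was followed in sorted mouse haematopoietic stem and progenitor cells after loss of Ctcf, and 30 of the 31 had a value of their own among the 22180 genes of the array table. Membership goes by gene name and uses no threshold on the signal, and where a gene had several probe sets the brightest over the 6 arrays stood for it. The remaining gene, Clec9a, the receptor of cross-presenting dendritic cells for dying cells, shares its only probe set with Clec1b and was given no value. Of the 30, 15 had a mean log2 signal above 6.29, the median over all genes, which divides signals and not transcript levels.

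Signals came from 6 Affymetrix Mouse Gene 2.0 ST arrays hybridised with RNA of LSK cells, which lack lineage markers, carry Sca-1 and have high c-Kit, sorted from bone marrow of male mice aged 8 weeks. There were 3 arrays of mice labelled Ctcf conditional KO (Ctcf cKO below) and 3 of mice labelled WT, each labelled a biological replicate. The study's text calls the deletion inducible by tamoxifen and names CreER mice beside the conditional knockouts, and the labels do not say whether the WT mice carry the recombinase. Both groups were treated with tamoxifen, 2 mg daily on 3 days, and cells were taken 24 hours after treatment ended. The sources used here name neither the promoter that drives the recombinase nor any pooling of animals. CTCF, the product of Ctcf, binds insulators and the anchors of chromatin loops, and the comparison asks how its acute loss changes transcripts of stem and progenitor cells.

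Values are log2 summaries of probe sets, in which 1 unit is a 2-fold step. They carry no detection call, a background signal is never 0, and signals of different probe sets cannot be ranked against each other. The median probe set of an array had a signal of 5.99 to 6.07. Ctcf itself stood between 7.58 and 7.86 on the Ctcf cKO arrays, against 8.35 to 8.73 on the WT arrays, a log2 difference of -0.82 (SE 0.13, limma adjusted p = 0.104; exact two-sided permutation p = 0.1, the smallest that 3 arrays against 3 can give). Of the genes for the 2 sorted surface proteins, Ly6a, which encodes Sca-1, had no value. Kit lay between 10.12 and 10.21 on Ctcf cKO arrays, against 10.22 to 10.65 on WT arrays, close but without overlap. Cd34, a stem and progenitor gene that is not part of the sort, lay between 11.78 and 12.04 on Ctcf cKO arrays. On WT arrays Cd34 lay between 11.93 and 12.02.

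Monocytes, macrophages and dendritic cells are the mononuclear phagocytes. In the marrow, monocytes and most dendritic cells descend through progenitors from the stem and multipotent cells sorted here, while tissue macrophages engulf dying cells and recycle their iron. These cells recognise microbes and debris with pattern, scavenger, lectin and Fc receptors, destroy them with lysosomal enzymes and oxidants, and, as dendritic cells, present their peptides to T cells. A lineage-negative sort removes most mature cells, but some panel genes, such as Lyz2 and Tcf4, are also used by progenitors or by other blood cells. In such bulk samples, fewer cells of a type and less RNA per cell cannot be told apart.

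No panel gene passed the test, and the panel did not move one way. The largest differences were a higher signal of Clec7a and Fcgr3 in Ctcf cKO cells and a lower signal of Mpeg1, Cybb, Ctss and C1qb. By limma with Benjamini-Hochberg adjustment over all 22180 genes, 0 of 30 had an adjusted p under 0.05, and the smallest was 0.394, for Mpeg1. Over all genes 16, or 0.0721%, passed, 0.0271% higher and 0.0451% lower in Ctcf cKO cells, and against that share 0 of 30 is not a result about the panel. At an unadjusted p under 0.05 by limma there were 4 of 30 (13.3%), 1 higher and 3 lower in Ctcf cKO cells, against 8.11% of all genes, 5.03% higher and 3.08% lower. Ctcf cKO and WT signals were fully separate for 3 of 30 (10.0%), all 3 lower in Ctcf cKO cells, against 13.3% of all genes, 7.96% higher and 5.32% lower. The share at p under 0.05 was thus above the background and the share without overlap below it.

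Over the panel, 12 differences (Ctcf cKO minus WT, log2) were above 0 and 18 below, with a median of -0.09 and a range of -0.81 to 0.89. Over all genes 45.3% were below 0 and the median was 0.02. A size above 0.5 was reached by 6 of 30 (20.0%), against 2.67% of all genes, and all 6 were among the 15 genes above the median of all genes' means. The panel also varied more between replicates: its median SE was 0.20 against 0.13 over all genes. A 2-fold difference in either direction lay outside the 95% interval of the fit, which is not adjusted for the number of genes, for 24 of 30, and the half-widths of these intervals ran from 0.23 to 0.86.

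**Figure D1:**
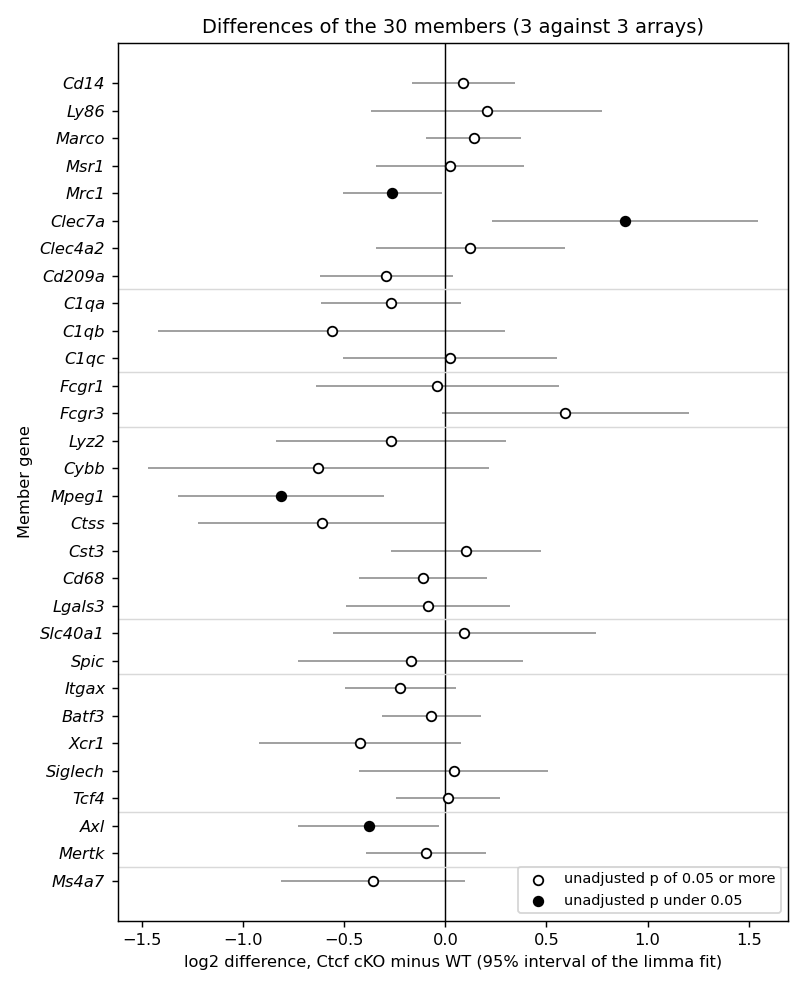
The log2 difference (x axis, Ctcf cKO minus WT) of each of the 30 panel genes (y axis, grouped by role) is drawn as a point with the 95% interval of the limma fit, and filled points have an unadjusted p under 0.05. Clec7a is the 1 filled point above 0, Mpeg1, Mrc1 and Axl are the 3 below it, and most intervals span 0.

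Receptors for microbial and cellular debris came to 8 genes, 6 with a positive difference and 2 with a negative one. Clec7a, which encodes Dectin-1, the lectin that binds fungal beta-glucan, had log2 signals of 7.73, 7.82 and 6.82 on the Ctcf cKO arrays and of 6.31, 6.34 and 7.05 on the WT arrays. Ctcf cKO replicates 1 and 2 stood above all WT arrays, and Ctcf cKO replicate 3 below WT replicate 3, so the groups overlapped. The difference was 0.89 (SE 0.29, 95% interval 0.23 to 1.55), or 1.85-fold, with an unadjusted p of 0.0138 and an adjusted p of 0.490 by limma. It was 1.21 without Ctcf cKO replicate 3, and the unadjusted p was under 0.05 in 5 of the 6 fits that left out 1 array.

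Mrc1, the mannose receptor of macrophages, was the 1 gene of these receptors whose groups did not overlap. Its signals were 5.56, 5.69 and 5.45 in Ctcf cKO cells, against 5.77, 5.86 and 5.85 in WT cells, with all Ctcf cKO arrays below all WT arrays. The difference was -0.26 (SE 0.11, unadjusted p = 0.0387, adjusted p = 0.590 by limma), its mean signal is below that median of 6.29, and the unadjusted p was under 0.05 in 1 of the 6 fits that left out 1 array.

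Ly86, whose protein MD-1 pairs with the Toll-like receptor homologue RP105, had signals of 10.58, 9.87 and 9.80 in Ctcf cKO cells, against 10.00, 9.42 and 10.21 in WT cells. The groups overlapped, and the difference of 0.20 (SE 0.25) turned to -0.04 without Ctcf cKO replicate 1 and to -0.02 without WT replicate 2. Cd209a, a DC-SIGN type lectin of monocyte-derived dendritic cells, differed by -0.29 (SE 0.14), and its second, dimmer probe set by -0.40. The other 4, which are Cd14, the endotoxin co-receptor, Marco and Msr1, scavenger receptors of macrophages, and Clec4a2, an inhibitory C-type lectin gene, differed by 0.02 to 0.14, and Msr1 by -0.03 with centring on brighter genes.

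The 3 chains of complement C1q, which macrophages secrete and which tag debris for uptake, are neighbours in the order C1qb, C1qc and C1qa on chromosome 4. C1qb had signals of 7.30, 6.62 and 6.68 in Ctcf cKO cells, against 8.10, 6.47 and 7.71 in WT cells. WT replicate 2 was below every Ctcf cKO array while the other 2 WT arrays were above them. The difference was -0.56 (SE 0.38, adjusted p = 0.764 by limma), which became -1.04 without WT replicate 2 and -0.23 without WT replicate 1. C1qa differed by -0.27 (SE 0.15) and C1qc by 0.02 (SE 0.23), or -0.03 with centring on brighter genes. All 3 chains had WT replicate 1 as the highest WT array and WT replicate 2 as the lowest.

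Among the Fc receptors for IgG, Fcgr3, which encodes the low-affinity activating receptor III, had signals of 8.02, 7.20 and 6.94 in Ctcf cKO cells, against 7.00, 6.44 and 6.94 in WT cells. Ctcf cKO replicate 1 stood well above the others and Ctcf cKO replicate 3 was level with the brighter WT arrays. The difference was 0.59 (SE 0.27, 95% interval -0.02 to 1.20, adjusted p = 0.626 by limma), and 0.28 without Ctcf cKO replicate 1. Fcgr1, the high-affinity receptor I of monocytes and macrophages, differed by -0.04 (SE 0.26). Its signals of 6.19, 6.11 and 5.71 in Ctcf cKO cells lay inside the range of the 6.05, 5.47 and 6.61 in WT cells.

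The 7 genes of lysosomal, oxidative and secreted effectors were 1 positive and 6 negative. Mpeg1, which encodes perforin-2, a pore-forming protein of phagosomes, had signals of 8.40, 7.75 and 7.48 in Ctcf cKO cells, against 8.51, 8.65 and 8.91 in WT cells. The 3 Ctcf cKO arrays were all below the 3 WT arrays, by a narrow step between Ctcf cKO replicate 1 and WT replicate 1. The difference was -0.81 (SE 0.22, 95% interval -1.32 to -0.30), or 0.569 of the WT signal, with an unadjusted p of 0.00579 and an adjusted p of 0.394 by limma. It lay between -1.07 and -0.62 with 1 array left out, and the unadjusted p was under 0.05 in all 6 such fits and in all 7 other alternatives.

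Cybb and Ctss had differences of like size that shrank when Ctcf cKO replicate 3 was left out. Cybb, the catalytic chain of the phagocyte NADPH oxidase, had signals of 8.49, 8.65 and 7.02 in Ctcf cKO cells, against 8.84, 8.57 and 8.63 in WT cells. Its difference was -0.63 (SE 0.37, adjusted p = 0.721 by limma) and -0.11 without Ctcf cKO replicate 3, the 1 array that stood apart. Ctss, the protease cathepsin S that trims the invariant chain of MHC class II, had signals of 8.13, 8.93 and 7.67 in Ctcf cKO cells, against 8.87, 8.91 and 8.78 in WT cells. Here Ctcf cKO replicate 2 was level with WT and the other 2 were below it, and the difference of -0.61 (SE 0.27, adjusted p = 0.617 by limma) was -0.32 without Ctcf cKO replicate 3 and -0.95 without Ctcf cKO replicate 2.

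Lyz2, the lysozyme of monocytes, macrophages and neutrophils, had signals of 10.24, 10.07 and 9.88 in Ctcf cKO cells, against 10.81, 9.71 and 10.46 in WT cells. The WT arrays enclosed the Ctcf cKO arrays, and the difference of -0.27 (SE 0.25) was -0.03 without WT replicate 1 and -0.58 without WT replicate 2. Cst3, the secreted protease inhibitor cystatin C, differed by 0.10 (SE 0.16) and its second, dimmer probe set by -0.05. Cd68, a lysosomal glycoprotein of macrophages, differed by -0.11 (SE 0.14), and Lgals3, the galactoside-binding lectin galectin-3, by -0.09 (SE 0.18).

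The upstream sequences of 3 of these genes are given as the 250 bases before a transcript start listed in RefSeq, build GRCm38.p6, because Clec7a and Mpeg1 had the largest differences in either direction and Ctss has a match to an interferon element. Clec7a has 2 listed starts, and its window precedes the one further inside the gene, so that its last 6 bases lie within the gene as annotated. Capitals mark a match to a searched motif, read 5′ to 3′ on the strand of the gene.
Clec7a, chr6:129472780-129473029, minus strand: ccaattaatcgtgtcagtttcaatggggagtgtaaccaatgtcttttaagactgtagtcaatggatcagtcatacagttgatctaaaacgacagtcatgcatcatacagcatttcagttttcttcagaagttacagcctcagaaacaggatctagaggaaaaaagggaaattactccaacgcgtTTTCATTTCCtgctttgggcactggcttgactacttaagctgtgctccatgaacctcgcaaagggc
Mpeg1, chr19:12460520-12460769, plus strand: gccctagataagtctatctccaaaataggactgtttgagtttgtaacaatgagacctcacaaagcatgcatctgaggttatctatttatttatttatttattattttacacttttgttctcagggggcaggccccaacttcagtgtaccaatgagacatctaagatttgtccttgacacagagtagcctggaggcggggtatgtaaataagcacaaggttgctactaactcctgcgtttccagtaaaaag
Ctss, chr3:95526536-95526785, plus strand: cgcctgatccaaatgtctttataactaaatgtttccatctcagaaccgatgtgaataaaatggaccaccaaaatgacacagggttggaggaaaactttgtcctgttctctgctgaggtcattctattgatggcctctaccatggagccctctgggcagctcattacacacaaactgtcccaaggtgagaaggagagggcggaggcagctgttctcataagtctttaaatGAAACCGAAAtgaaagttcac
The capitals of Clec7a match the composite element of ETS and IRF factors, searched as GGAA and GAAA with any 2 bases between them, on the opposite strand. Those of Ctss match the interferon-stimulated response element, searched as GAAA and GAAA with any 2 bases between them, on the strand of the gene. The Mpeg1 stretch has no match to the 4 motifs.

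Of the panel, 25 genes had at least 1 start in the RefSeq table, and both strands of the 250 bases were searched. A panel gene counted if any of its starts had a match, while the share over all starts counts each start. The shares are therefore not in the same unit. The ETS and IRF element was found in 1 of the 25 (Clec7a), against 2.30% of all 32851 starts, and the interferon-stimulated element in 2 (Ctss and Cybb), against 2.98%. GAGGAAGT, a core of the sites of PU.1, the myeloid regulator encoded by Spi1, was found in 1 (C1qc), against 2.44%. A core of the CTCF motif, searched as CCA, AG and GGC in this order with any 2 bases between each, was found in 0, against 2.07%. A match is a match of letters only, and the lack of one covers only these 250 bases.

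Genes of iron-recycling macrophages were Slc40a1, which encodes the iron exporter ferroportin, and Spic, which encodes a transcription factor needed for red pulp macrophages. Slc40a1 had signals of 6.45, 6.29 and 5.99 in Ctcf cKO cells, against 6.36, 5.42 and 6.66 in WT cells. WT replicate 2 was the lowest array and WT replicate 3 the highest, and the difference of 0.09 (SE 0.29) was -0.06 with array weights. Spic differed by -0.17 (SE 0.24), with WT replicate 1 the highest array and WT replicate 2 the lowest.

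The 5 measured dendritic cell genes were 2 positive and 3 negative. Their median SD was 0.109 in Ctcf cKO cells and 0.117 in WT cells, against 0.263 and 0.233 over the panel. However, only 1 of the 5 had a mean above the median of all genes' means. Within the list Xcr1 and Siglech had larger SDs in Ctcf cKO cells, of 0.49 and 0.40. Itgax, the integrin chain CD11c, had signals of 6.09, 5.91 and 6.08 in Ctcf cKO cells, against 6.43, 6.10 and 6.22 in WT cells. All Ctcf cKO arrays were below all WT arrays, though Ctcf cKO replicate 1 and WT replicate 2 nearly met, and the difference was -0.22 (SE 0.12, unadjusted p = 0.102 by limma). Xcr1, the chemokine receptor of cross-presenting dendritic cells, had signals of 6.61, 5.70 and 5.86 in Ctcf cKO cells, against 6.55, 6.54 and 6.34 in WT cells. Ctcf cKO replicate 1 was the highest of all 6 arrays and the other 2 Ctcf cKO arrays the lowest, and the difference of -0.42 (SE 0.22) was -0.70 without Ctcf cKO replicate 1 and -0.24 without Ctcf cKO replicate 2. Batf3, a transcription factor of the same dendritic cells, differed by -0.07 (SE 0.11). For plasmacytoid dendritic cells, Siglech, a sialic acid-binding receptor, differed by 0.04 (SE 0.21) and Tcf4, which encodes their regulator E2-2, by 0.01 (SE 0.11), and both were below 0 with centring on brighter genes.

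Axl and Mertk are receptor kinases through which phagocytes take up apoptotic cells. Gas6 and protein S are ligands of their family, though not each of every receptor. Axl had signals of 7.22, 7.21 and 7.09 in Ctcf cKO cells, against 7.70, 7.21 and 7.75 in WT cells. The Ctcf cKO arrays lay close together, and WT replicate 2 fell among them while the other WT arrays stood above. The difference was -0.38 (SE 0.15, unadjusted p = 0.0357, adjusted p = 0.583 by limma), and the unadjusted p was under 0.05 in 1 of the 6 fits without 1 array. Mertk differed by -0.10 (SE 0.13), and the third receptor of the family, Tyro3, by 0.08 (SE 0.12). Of the ligand genes, Gas6 differed by 0.21 (SE 0.11) with all Ctcf cKO arrays above all WT arrays, and Pros1 by 0.12 (SE 0.17). Ms4a7, a four-span membrane protein gene of macrophages, differed by -0.36 (SE 0.20) with overlapping groups.

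**Figure D2:**
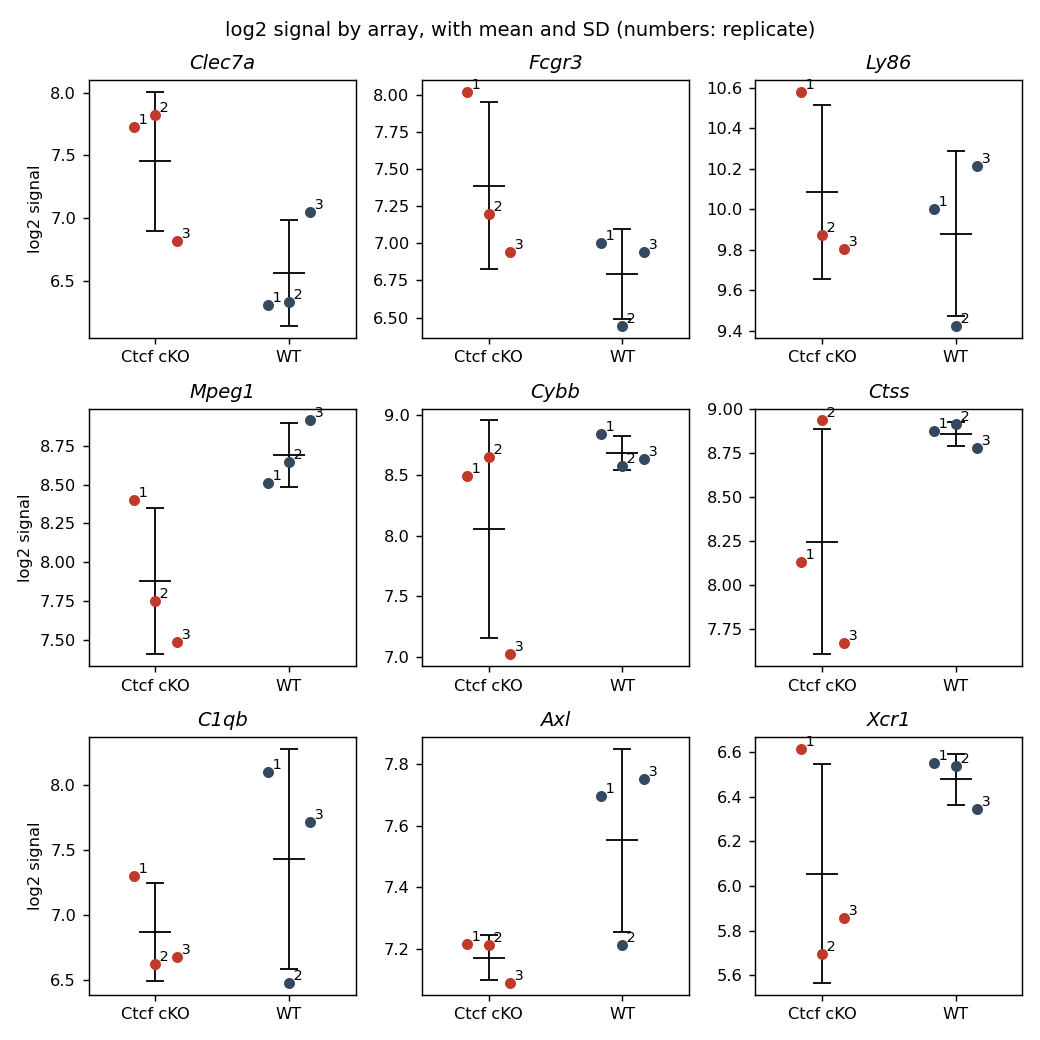
Log2 signals (y axis, a scale of its own in each panel) of 9 panel genes are drawn for the 3 Ctcf cKO arrays at left and the 3 WT arrays at right, with replicate numbers, group mean and SD. Ctcf cKO replicate 3 stands apart for Cybb and WT replicate 2 for C1qb and Axl, and of the 9 genes Mpeg1 is the 1 whose groups do not overlap.

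Within each group, many panel genes had the same array as the highest or the lowest. Ctcf cKO replicate 3 was the lowest array of its group for 21 of 30 genes (70.0%), against 30.5% of all genes, and Ctcf cKO replicate 1 the highest for 18 (60.0%), against 35.6%. In the WT group replicate 2 was the lowest for 17 (56.7%), against 39.3% of all genes, and replicate 1 the highest for 15 (50.0%), against 33.5%. The median deviation of the panel from each gene's mean of 6 arrays was 0.14, -0.10 and -0.24 on Ctcf cKO replicates 1, 2 and 3, and 0.20, -0.12 and 0.12 on WT replicates 1, 2 and 3. Ctcf cKO replicate 1 thus stood level with the higher WT arrays and WT replicate 2 with the lower Ctcf cKO arrays. No batch is named in the labels, so within-batch values could not be given.

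**Figure D3:**
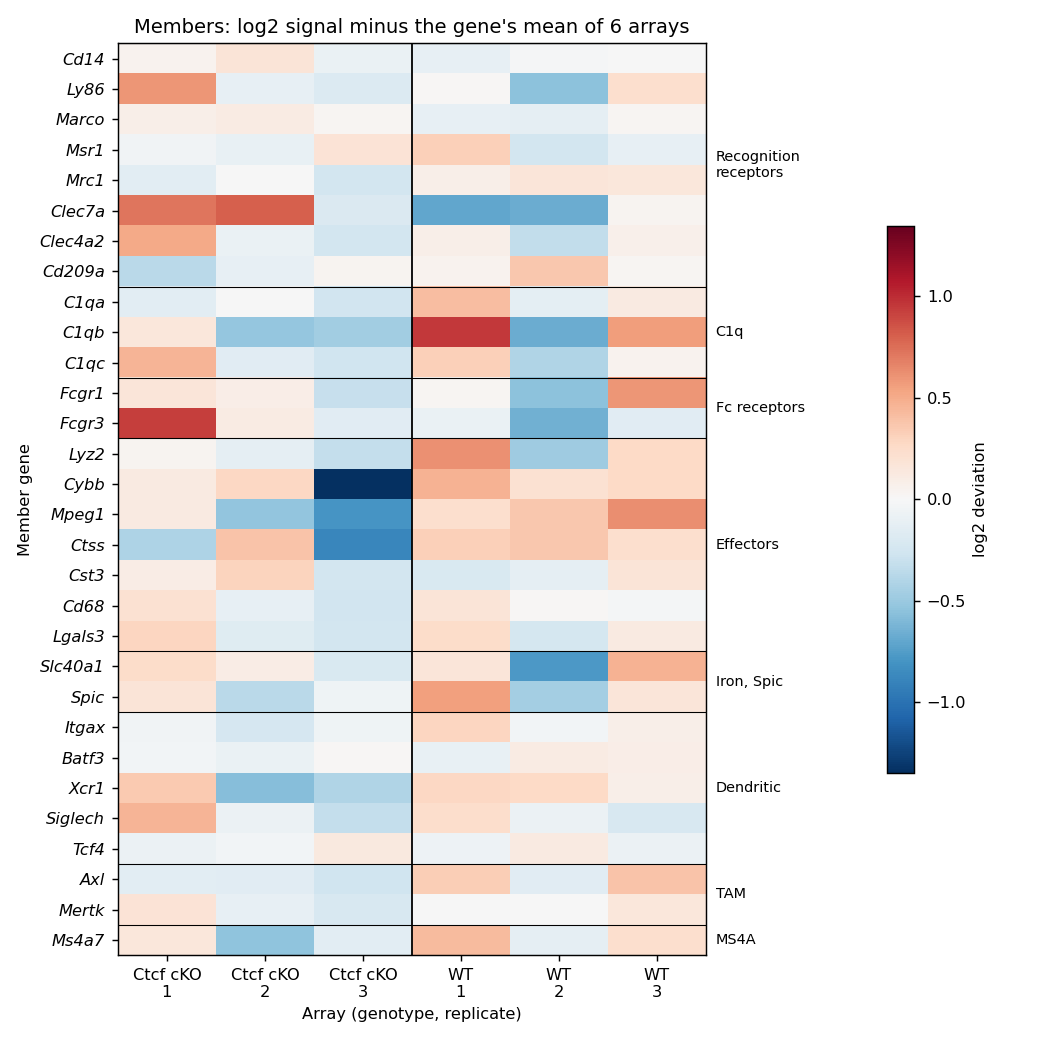
Each cell gives the log2 signal of a panel gene (rows, by role) on an array (columns, Ctcf cKO left of WT) minus that gene's mean over the 6 arrays, red above and blue below. Ctcf cKO replicate 3 and WT replicate 2 are mostly blue, and Ctcf cKO replicate 1 and WT replicate 1 mostly red.

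A second list of 56 mononuclear phagocyte genes that are not in the panel, of which 53 had a value, had the same arrays at the ends. Ctcf cKO replicate 3 was the lowest of its group for 28 of 53 (52.8%) and WT replicate 2 for 31 of 53 (58.5%), and the highest were Ctcf cKO replicate 1 for 28 of 53 and WT replicate 1 for 24 of 53. None of the 53 passed the adjusted test. At an unadjusted p under 0.05 by limma 3 were higher in Ctcf cKO cells and 0 lower, or 5.66% in all against 8.11% of all genes, and the median difference was -0.0043, with 26 positive and 27 negative. Groups did not overlap for 4 higher and 3 lower genes, 13.2% in all against 13.3% of all genes.

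The 3 higher genes were F13a1, Mgl2 and Tyrobp, and for each all Ctcf cKO arrays were above all WT arrays. F13a1, which encodes the A chain of coagulation factor XIII and is made by monocytes and their progenitors, had signals of 9.12, 9.17 and 8.81 in Ctcf cKO cells, against 7.77, 8.00 and 8.36 in WT cells. Its difference of 0.99 (SE 0.17, adjusted p = 0.115 by limma), or 1.98-fold, was larger than that of any panel gene and lay between 0.85 and 1.15 with 1 array left out. F13a1 is the neighbour of Ly86 on chromosome 13, whose difference was 0.20. Tyrobp, the adaptor DAP12 of activating myeloid receptors, differed by 0.56 (SE 0.15, adjusted p = 0.400 by limma). Mgl2, a galactose-type lectin of dendritic cells and macrophages, differed by 0.61 (SE 0.18, adjusted p = 0.443 by limma).

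The second list names 13 transcription regulators of the lineage, all of which are counted here, after their values were seen. Of these 10 had a value, 4 with a positive and 6 with a negative difference. At an unadjusted p under 0.05 by limma there were 0 of 10, against 8.11% of all genes. Against that share 0 of 10 is not a result about the regulators. Irf4, a factor of dendritic cells that B and plasma cells also use, had the largest difference in size at -0.67 (SE 0.42), followed by Irf8, which directs progenitors to monocytes and dendritic cells, at -0.27 (SE 0.19). Zbtb46, a factor of conventional dendritic cells, differed by -0.21 (SE 0.10) with all Ctcf cKO arrays below all WT arrays. Klf4 differed by -0.12 (SE 0.11), Cebpb by -0.03 (SE 0.13) and Spi1 by -0.01 (SE 0.15). The positive ones were Nr1h3, the oxysterol receptor LXR alpha, at 0.26 (SE 0.12), Id2 at 0.21 (SE 0.32), Maf at 0.18 (SE 0.16) and Nr4a1 at 0.06 (SE 0.33). Csf1r, the receptor for macrophage colony-stimulating factor, differed by 0.02 (SE 0.17).

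**Figure D4:**
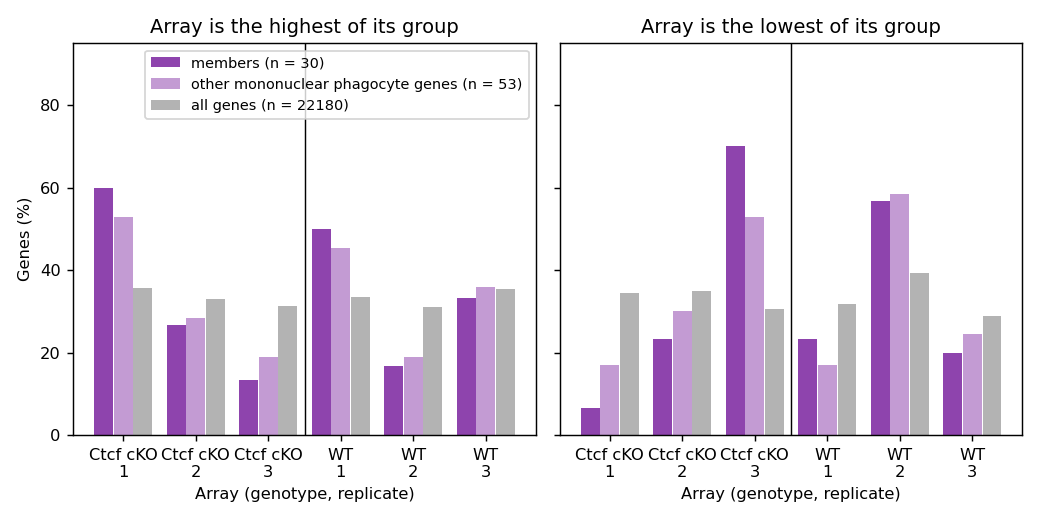
Bars give the percent of genes (y axis) for which an array (x axis, Ctcf cKO left of WT) was the highest (left) or the lowest (right) of the 3 in its group, for the 30 panel genes, 53 further mononuclear phagocyte genes and all 22180 genes. Ctcf cKO replicate 3 was the lowest for 70.0% of the panel, against 30.5% of all genes.

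Markers of other cells also differed between these arrays, and their part in the panel's values was not tested. Late neutrophil genes, of a cell type that also uses Lyz2 and Cybb, were negative for 11 of 14. At an unadjusted p under 0.05 by limma 6 (42.9%) were lower, against 3.08% of all genes. Without overlap 3 (21.4%) were lower, against 5.32% of all genes. The summed linear signal of the late neutrophil genes was 2411 to 2907 on Ctcf cKO arrays, against 2888 to 7198 on WT arrays. WT replicate 2 was the lowest WT array. The list was uneven: Csf3r, a receptor gene also used by progenitors, differed by -0.15 (SE 0.14) and Ngp, a granule protein gene, by -2.44 (SE 0.52). Ngp had signals of 8.37, 8.01 and 7.46 in Ctcf cKO cells, against 11.49, 9.08 and 10.59 in WT cells. WT replicate 2 was thus its lowest WT array, as for 17 of 30 panel genes and 39.3% of all genes. B and plasma cell genes were negative for 15 of 15, with sums of 11315 to 20036 in Ctcf cKO cells, against 18610 to 29996 in WT cells.

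Interferon response genes, a state that also raises Axl and Fcgr1 in phagocytes, were negative for 10 of 10. Of these 7 (70.0%) were lower without overlap, against 5.32% of all genes. The list had sums of 2111 to 3392 in Ctcf cKO cells, against 4054 to 6282 in WT cells. Bst2, 1 of the 10, is also in the second phagocyte list. Primary granule genes of granulocyte and monocyte progenitors went the other way, with 7 of 8 positive. All 7 (87.5%) were higher at an unadjusted p under 0.05 by limma, against 5.03% of all genes. Without overlap 6 (75.0%) were higher, against 7.96% of all genes. The list summed to 14883 to 20441 in Ctcf cKO cells, against 7169 to 10842 in WT cells.

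Of the other lists, the sums overlapped between groups except for the mast cell list. Mast cell and basophil genes summed to 1385 to 2184 in Ctcf cKO cells, against 870 to 1336 in WT cells, with 6 of 7 positive. The median deviations of this list overlapped, at -0.03 to 0.54 on Ctcf cKO arrays, against -0.48 to -0.02 on WT arrays. In it Hdc, the histamine-forming enzyme, differed by 2.32 (SE 0.26, adjusted p = 0.0309 by limma) and was the 1 gene of these marker lists and both phagocyte lists that passed the adjusted test. Mcpt8, a basophil protease gene, differed by 1.11 (SE 0.16, adjusted p = 0.0708 by limma), and Cpa3, a mast cell protease gene, by 0.45 (SE 0.28). T and NK cell genes summed to 2014 to 2786 in Ctcf cKO cells, against 1392 to 2068 in WT cells, with 2 of 8 positive. Most of this sum on each array came from Nkg7, which differed by 0.68 (SE 0.20). The T cell genes Cd3e, Cd3d and Cd3g differed by -0.23, -0.03 and -0.14. Erythroid genes summed to 3382 to 5866 in Ctcf cKO cells, against 2688 to 4126 in WT cells, with 3 of 5 positive. Stromal and endothelial genes summed to 1630 to 1748 in Ctcf cKO cells, against 1603 to 1665 in WT cells, with 3 of 7 positive. Stem and progenitor genes summed to 10397 to 11958 in Ctcf cKO cells, against 11297 to 13658 in WT cells, with 2 of 10 positive.

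With 1 array left out in turn, 0 of 30 panel genes passed the adjusted test in any of the 6 fits, and 19 of 30 kept the sign of their difference in these and in the other alternatives that could be run. These were 7 for 10 of the 19 and 6 for the other 9, which are not among the genes above the median signal. The panel median lay between -0.21 and -0.03 over the 6 fits. It was -0.21 when Ctcf cKO replicate 1 was left out, -0.20 when WT replicate 2 was and -0.03 when WT replicate 1 was. The number of panel genes lower in Ctcf cKO cells at an unadjusted p under 0.05 was 6 without WT replicate 2, against 1 without WT replicate 1 and 1 without WT replicate 3. The number higher was 0 without Ctcf cKO replicate 2 and 2 without Ctcf cKO replicate 3. The share of all genes at that unadjusted p was not counted for these fits. The shifts of the 2 counts are therefore not results about the panel. Over all genes the adjusted test called 0 without Ctcf cKO replicate 1 and at most 8 without any other array.

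**Figure D5:**
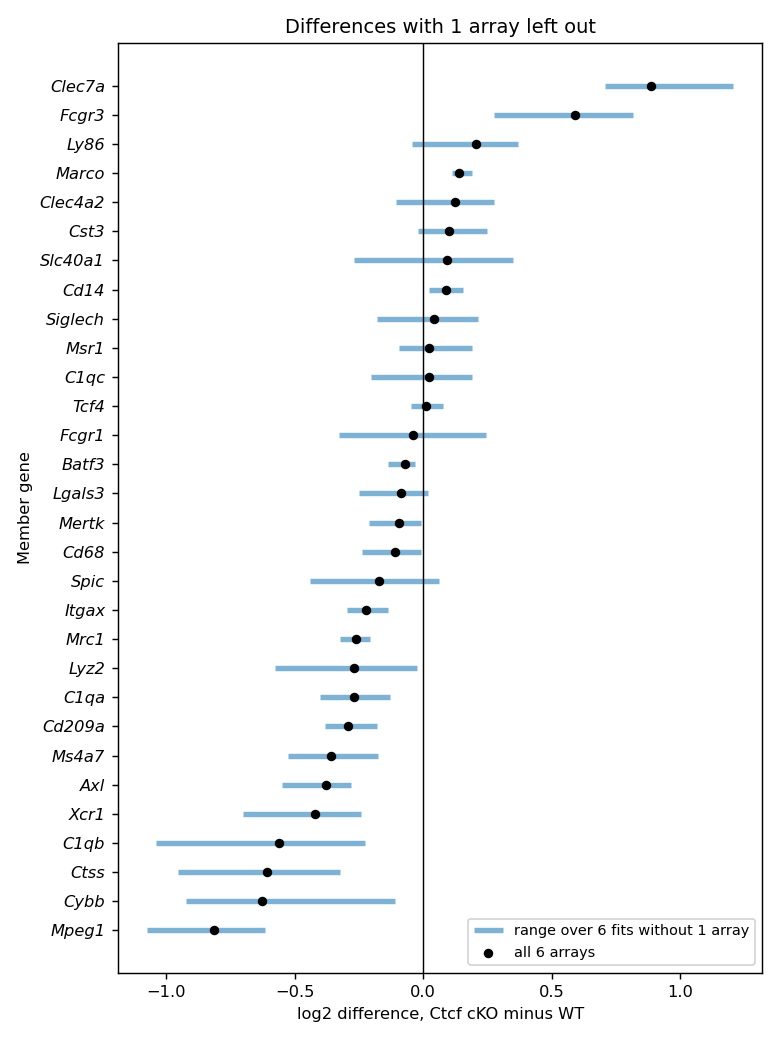
For each panel gene (y axis, ordered by difference) the point is the log2 difference, Ctcf cKO minus WT (x axis), with all 6 arrays, and the bar is the range over the 6 fits without 1 array. Clec7a and Fcgr3 stay above 0 and Mpeg1 below -0.6, while the bar of Cybb ends at -0.11.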

How the data were processed

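RNA was amplified and hybridised, per the labels' protocols. Values deposited by the authors were on the log2 scale, 1 per probe set, made with RMA and the R package oligo, per the submitters' processing notes. That method removes background, gives all arrays like distributions and compresses differences of dim probe sets. Versions, summary level and build: not given in the sources used here. GEO's platform annotation gave 1 symbol for 23521 of 41345 probe sets and so 22180 genes, with no filter on low values. RefSeq (GRCm38.p6) identifiers changed 0 symbols. Then limma (version 3.58.1, R 4.3.3; lmFit and eBayes) tested Ctcf cKO against WT over all genes with group as the one term and Benjamini-Hochberg adjustment. The script was tested on simulated data. The alternatives were trend and robust moderation, array weights, brighter genes only, quantile normalization, centring on brighter genes, the mean of probe sets, a replicate block and each array left out. The panel and the lists were chosen with earlier results of these data known. All panel genes were named, and of the second list those with an unadjusted p under 0.05 and no overlap; the TAM ligands, Tyro3 and regulators were chosen after their values were seen. Whether the replicate numbers pair the arrays is not known. Deviations of same-numbered arrays correlated at 0.29, 0.02 and -0.14 over genes, and those of differently numbered arrays at -0.25 to 0.25. These values cannot decide it, because genes are not independent replicates. Summed signals add the linear values of a list. The naming rule also asked for the brightest markers of each list, which are not ranked here because probe sets differ in response; the markers named were chosen after their values were seen.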

Additional observations from a re-analysis of the deposited data

How the results depend on the processing

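No panel gene and no gene of the second list passed at an adjusted p under 0.05 by limma in any of the 7 alternatives or the 6 fits that left out 1 array, and the smallest adjusted p of a panel gene was 0.119, for Mpeg1 without Ctcf cKO replicate 1. Of all genes 16 passed, 25 with trend and robust moderation, 7 with a replicate block and 0 to 8 with 1 array left out, where fewer arrays enter the fit. Panel genes higher at an unadjusted p under 0.05 numbered 1, against 2 with trend and robust moderation, 2 with the replicate block and 0 to 2 with 1 array left out. Those lower numbered 3, against 5 with centring on brighter genes, 5 with the replicate block and 1 to 6 with 1 array left out. Panel genes without overlap numbered 3, against 5 with centring, 1 with a further quantile normalization, 1 among the 15 brighter genes and 6 to 8 with 1 array left out, where separation is easier. In the second list genes lower at p under 0.05 numbered 0, against 2 with array weights, 2 with centring, 3 with the replicate block and 0 to 3 with 1 array left out, and those higher 3 to 5 with 1 array left out. Whether the numbers pair the arrays is not known, and the block is given for these counts only. Shares of all genes at that unadjusted p or without overlap were not counted for the alternatives or the fits without 1 array. The shifts of these counts between settings are therefore not results about the panel or the second list.

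Signs turned for C1qc (-0.089), Slc40a1 (-0.059) and Siglech (-0.027) with array weights, for Tcf4 (-0.002) with quantile normalization, and for Msr1 (-0.032), C1qc (-0.034), Siglech (-0.015) and Tcf4 (-0.043) with centring. With 1 array left out, 11 panel genes spanned 0: Ly86 from -0.043 to 0.37, Msr1 from -0.094 to 0.19, Clec4a2 from -0.10 to 0.27, C1qc from -0.20 to 0.19, Fcgr1 from -0.33 to 0.24, Cst3 from -0.021 to 0.25, Lgals3 from -0.25 to 0.020, Slc40a1 from -0.27 to 0.35, Spic from -0.44 to 0.062, Siglech from -0.18 to 0.21 and Tcf4 from -0.049 to 0.078. The cause was not tested. The precision is set by 3 arrays a group, and dim probe sets give compressed differences.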
